A study of Mus musculus with 8 samples.

Results

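B cells of the mouse heart that carry transcripts of Dnase1l3, Il5ra, Ctla4 or Fcrl5 were examined in 4 recipient mice. They were chosen by a gate on raw transcript counts (UMIs, unique molecular identifiers): at least 3 UMIs of the B cell genes Cd79a, Cd79b and Ms4a1 together, at least 2 UMIs of Dnase1l3, Il5ra, Ctla4 and Fcrl5 together, and at most 2 UMIs of the complement genes C1qa, C1qb and C1qc, which mark macrophages. Barcodes with fewer than 200 genes or over 10% of UMIs from mitochondrial genes were dropped, and a heart barcode had 10 or more hashtag UMIs with 80% or more from the heart antibody. The gate held 306 barcodes, out of 560 heart B cells, 5323 heart barcodes and 11130 barcodes in the series. In recipients of stroke marrow it held 40 and 69 barcodes in replicates 1 and 2, and in recipients of control marrow 99 and 98.

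The recipients were Mx1Cre:c-Myb fl/fl mice, in which an interferon-inducible Cre can delete c-Myb, a factor that blood-forming cells need, so that the marrow can be replaced. Their marrow came from stroke donors (2 mice) or control donors (2 mice), and all 4 carried the same recipient genotype. Cells of blood and heart were sorted as CD45+CD11b+, marked for their organ with hashtag antibodies and pooled into 1 library per mouse. Ages of the animals and the time since transplantation are not given in the labels. Each donor group is 2 libraries, each barcode's library number was assumed to be the mouse number of the labels, and p-values measure only the spread between these libraries. Donor and host cells were not told apart. Control replicate 1 was of male type, with 1.25 CPM of Xist (a gene's UMIs scaled by all gene UMIs of the same cells) among its members against 668 in control replicate 2 and 851 and 797 CPM in stroke replicates 1 and 2, so that sex was not balanced between the donor groups.

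B cells fall into several lineages. Follicular B cells recirculate through lymphoid organs, carry surface IgD and CD23 (Fcer2a) and answer to T cells. B-1 cells are innate-like, make natural IgM, live mainly in body cavities and often carry CD11b, the protein by which these samples were sorted. Il5ra encodes the ligand-binding chain of the interleukin 5 receptor, which mouse B-1 cells use for growth. Fcrl5 is an immunoglobulin-binding receptor of innate-like and antigen-experienced B cells, Ctla4 is a receptor that binds CD80 and CD86 and restrains T cell help, and Dnase1l3 is a secreted enzyme that cuts DNA in chromatin.

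The 4 libraries held between 10059365 and 16482961 gene UMIs. Members summed to 315052 and 474063 UMIs in stroke replicates 1 and 2 and to 799422 and 734764 in control replicates 1 and 2, and levels below are CPM of these sums unless another unit is named. The median member had 6811.5 UMIs, the median other heart B cell 4504.5. Depth entered the gate: heart B cells just inside it, with a gate sum of 2, had a median of 5605 UMIs (73 barcodes), those just outside, with a sum of 1, a median of 5115 (99 barcodes), and those with a sum of 0 a median of 3899 (155 barcodes). Of all 11130 barcodes, 28 shared their sequence with a barcode of another library, and 1 of these was a member. Blood of stroke replicate 2 stood apart, with 75.5% of its barcodes past the B cell threshold against 6.76% in stroke replicate 1. Calls of named organ genes that were lost without this mouse are stated below, as are some values that moved.

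Most members did not carry all 4 gate genes. Exactly 1 of the genes was found in 73 members, 2 in 136, 3 in 69 and all 4 in 28. Il5ra was the only gate gene in 49 members, Fcrl5 in 12, Ctla4 in 7 and Dnase1l3 in 5. The median gate sum was 4 UMIs and the highest 59. Another 41 heart barcodes passed the B cell and gate thresholds but had more C1q UMIs than allowed.

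The gate genes were abundant inside the gate by construction, and their values describe the rule and carry no test. Dnase1l3 stood at 187 and 135 CPM in members of stroke replicates 1 and 2 and at 141 and 256 CPM in members of control replicates 1 and 2, against 14.2, 20.1, 11.3 and 12.0 CPM in the other heart B cells of the same mice. Il5ra stood at 394 and 356 CPM in members of the stroke replicates and 329 and 343 CPM in those of the control replicates. Ctla4 had 102 and 118 CPM in stroke members and 136 and 151 CPM in control members. Fcrl5 had 140 and 133 CPM in stroke members and 158 and 155 CPM in control members. Relative to their level, Fcrl5 and Il5ra differed little between the members of these mice, and Dnase1l3 most. The members were chosen on these genes, so this spread is a description only and was not tested. The highest Dnase1l3 level, 256 CPM in control replicate 2, rests in part on 1 barcode, which held 43 of the 188 UMIs.

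The working name of these cells also includes Gem, a small GTP-binding protein, and Hs3st1, a heparan sulfate sulfotransferase, and neither followed the gate. Gem stood at 146 and 238 CPM in members of stroke replicates 1 and 2 and 124 and 178 CPM in those of control replicates 1 and 2, against 192, 111, 207 and 177 CPM in the other heart B cells. Hs3st1 stood at 66.7, 97.0, 72.6 and 89.8 CPM in members of the same 4 mice, against 106, 72.9, 128 and 98.0 CPM in other heart B cells. Both sets overlapped for both genes, with Gem higher among members in 2 of 4 mice and Hs3st1 in 1 of 4. Both genes separated heart from blood instead, as described below. B cell genes that the gate did not use were present: members held 1092 and 1329 CPM of the B lineage factor Ebf1 in the stroke replicates and 1305 and 1162 CPM in the control replicates. Other heart B cells of the same mice held more, at 1376, 1993, 1879 and 1587 CPM. Of 12 general B cell genes, 0 were higher and 3 lower among members in each of the 4 mice.

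**Figure D1:**
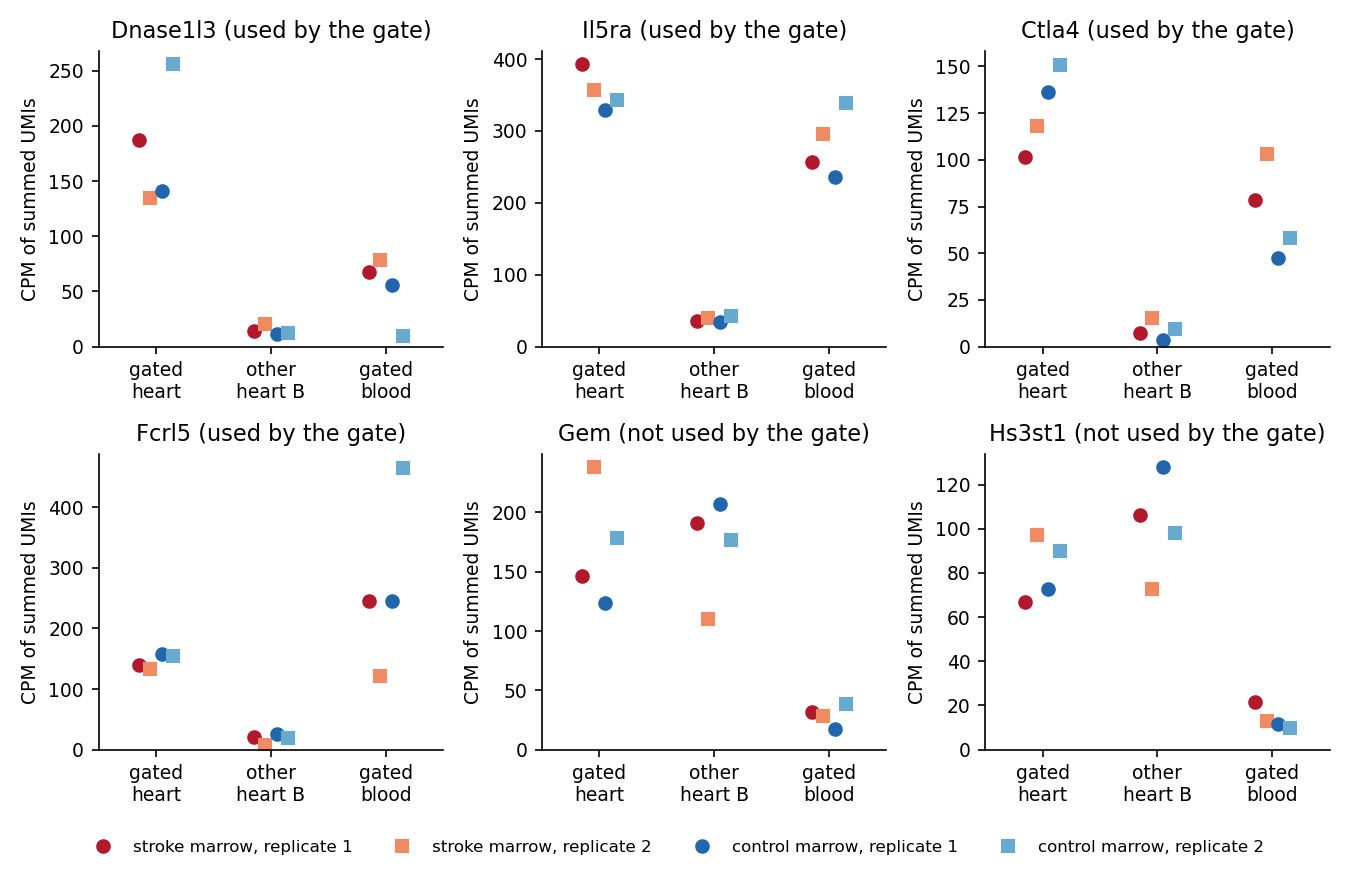
CPM of the 6 label genes in members, other heart B cells and blood B cells past the same gate, 1 point per mouse. The rule sets a minimum on the sum of the 4 gate genes in both gated sets, not on each gene. Dnase1l3 had 1 UMI in gated blood of control replicate 2. Gem and Hs3st1 are alike in both heart sets (Gem 124 to 238 CPM in members) and lower in blood (Gem 17.7 to 38.8 CPM, Hs3st1 9.69 to 21.4 CPM).

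A plainer view of what the members are comes from their level of other genes beside the other heart B cells. Since the gate used the same cells, this contrast is a description and carries no p-value. Of 8999 genes with at least 20 UMIs over both sets, gate genes left out, 967 (10.7%) were higher among members in each of the 4 mice and 729 (8.1%) were lower in each. At least 2-fold differences in every mouse, at an offset of 10 CPM, were few: 5 genes higher (0.0556%) and 6 lower (0.0667%).

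Genes known from B-1 cells leaned towards the members. Of 14 such genes with enough UMIs, 10 were higher among members in each of the 4 mice and none was lower in each, and the list's median log2 ratio was 0.38 against 0.03 over all genes described. Of the 14, Spn was higher in 2 mice and Bhlhe40 in 1. The lean was not particular to this list: memory and atypical B cell genes had a median of 0.36, with 3 of 9 higher in each mouse and 0 lower. Sox5, a transcription factor of B-1 and memory B cells, had 1330 and 1285 CPM in members of stroke replicates 1 and 2 and 1536 and 1331 CPM in those of control replicates 1 and 2. The other heart B cells held 667, 528, 745 and 741 CPM of it in the same order, so the sets did not overlap. Cd9, a tetraspanin of innate-like B cells, had 121, 97.0, 73.8 and 99.4 CPM in members, against 78.0, 32.7, 30.1 and 31.1 CPM in other heart B cells. Smaller ratios were seen for Zbtb32 (median log2 ratio 0.23), Bhlhe41 (0.33), Plac8 (0.27), Ptpn22 (0.45), Vim (0.58) and the aryl hydrocarbon receptor Ahr (1.13). Ighm was slightly higher in members of every mouse, at 2628, 2742, 2751 and 2586 CPM against 2334, 2427, 2221 and 2239 CPM. Itgam, the gene of the sorted protein CD11b, did not follow the gate, with 76.2, 71.7, 42.5 and 69.4 CPM in members against 56.7, 75.4, 105 and 83.6 CPM in other heart B cells, and the B-1a protein gene Cd5 had 3, 2, 5 and 1 UMIs in members of the 4 mice.

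Follicular genes pointed the other way. Of 10 genes of the follicular list, 7 were lower among members in each of the 4 mice, none was higher in each, and the median log2 ratio was −0.69. Ighd, the IgD heavy chain, had 82.5 and 158 CPM in members of stroke replicates 1 and 2 and 103 and 91.2 CPM in those of control replicates 1 and 2, against 248, 329, 181 and 306 CPM in other heart B cells. Fcer2a had 38.1, 73.8, 42.5 and 62.6 CPM in members against 85.1, 221, 60.2 and 225 CPM. Satb1, a chromatin organiser of naive lymphocytes, had 69.8, 99.1, 25.0 and 69.4 CPM against 376, 231, 128 and 244 CPM, a median log2 ratio of −1.83. The homing receptor Ccr7 (−0.65), the inhibitory receptor Btla (−0.61) and the complement regulator Cd55 (−0.73) were also lower in every mouse.

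Antigen presentation genes were mostly lower, in general by small amounts. Of 13, 8 were lower among members in each of the 4 mice and 1, the costimulatory ligand Cd80, was higher. The class II genes H2-Aa (median log2 ratio −0.31) and H2-Ab1 (−0.33), the invariant chain Cd74 (−0.24) and H2-Oa (−0.85) were among the 8. Cd80 had 108, 75.9, 78.8 and 136 CPM in members of the 4 mice against 56.7, 27.6, 64.0 and 45.4 CPM in other heart B cells. Small falls were not limited to this list. Of 9 immunoglobulin constant genes, 3 were lower in each mouse, Igkc (−0.33) among them, and 2 were higher in each. Plasma cell genes gave a mixed picture: Prdm1 (0.90), Irf4 (0.40) and Xbp1 (0.12), transcription factors of antibody secretion, were higher in each mouse, while Sdc1 had 1 UMI in members of all mice and Tnfrsf17 none. Of 4 members of the cytokine receptor list lower in every mouse, Ifngr1 had a median log2 ratio of −0.58, and Csf2rb, the shared signalling chain that pairs with Il5ra, was the 1 higher in every mouse, at 88.9, 57.0, 51.3 and 59.9 CPM against 35.5, 32.7, 37.6 and 47.8 CPM. The interleukin 10 gene Il10 had 8, 3, 4 and 3 UMIs in members of the 4 mice and none in the other heart B cells, with 27.8% of the members' UMIs in 1 barcode.

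**Figure D2:**
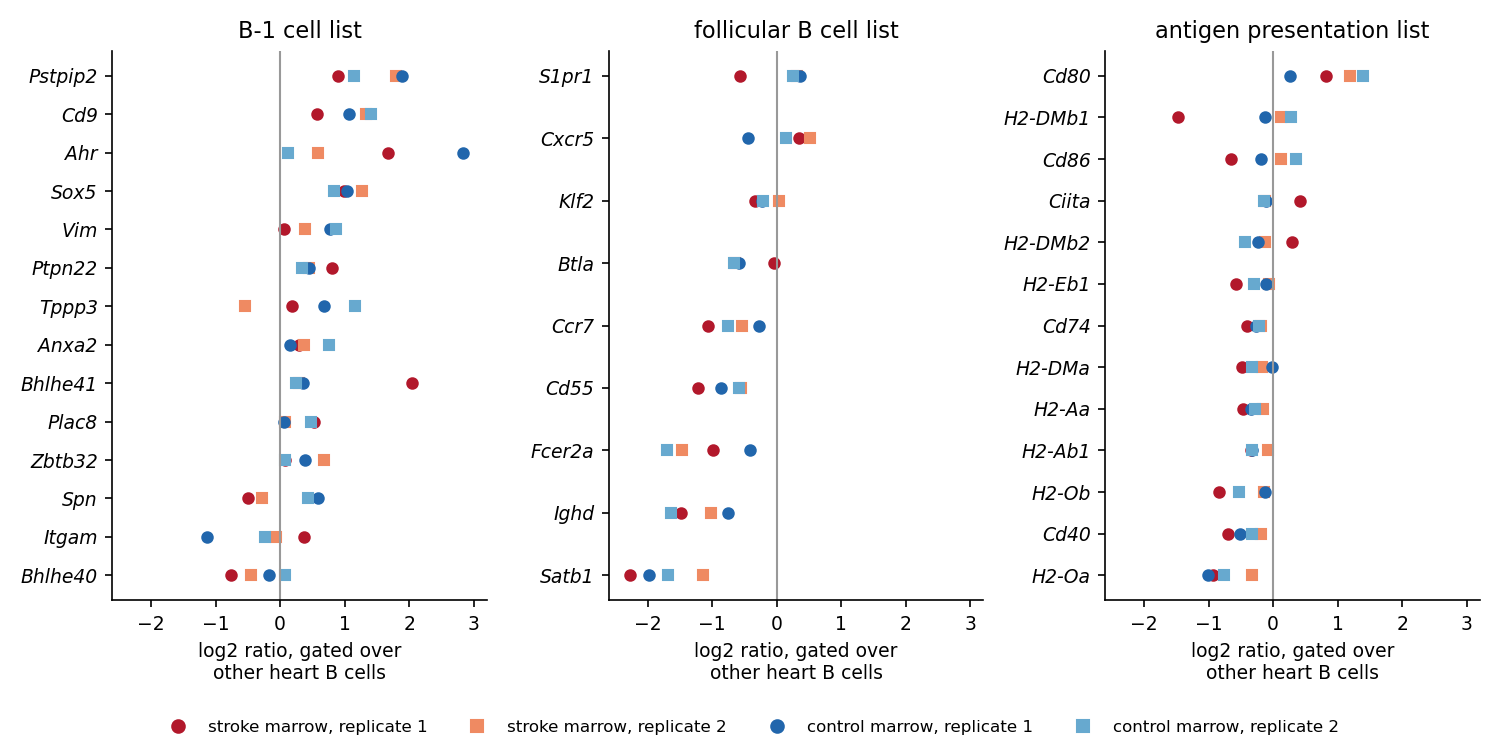
Log2 ratio of members over other heart B cells (offset 10 CPM) for genes of 3 lists that are reported here, 1 point per mouse. B-1 genes lie mostly right of 0 and follicular genes mostly left of it. H2 genes lie mostly left of 0, H2-Oa furthest (median −0.85), with H2-DMb1 and H2-DMb2 on both sides.

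The 15 genes with the highest median ratio among those higher in every mouse included few from these lists. Agbl1, a cytosolic carboxypeptidase of the tubulin-modifying family on chromosome 7 (GRCm38, 76229887 to 77124698), had 508, 441, 299 and 200 CPM in members of stroke replicates 1 and 2 and control replicates 1 and 2, against 35.5, 40.2, 207 and 64.5 CPM in other heart B cells. It was followed by the long noncoding RNA gene Gm30382 (median log2 ratio 2.10), 1810046K07Rik (2.05), the nuclear receptor Nr4a3 (1.66), Tnfsf8, which encodes CD30 ligand (1.57), the replication factor Mcm6 (1.56) and Pstpip2 (1.47). Rbm47, Ahnak2, Rab30, Slc39a11, Fzd6, Gm4258, Tent5c and Robo1 lay between 1.20 and 1.41. Among the 10 lowest were Vpreb3 (−2.41), a gene of immature and naive B cells, the carboxypeptidase gene Cpm (−1.81), Neurl3 (−1.67) and Ifitm1 (−2.07). The neutrophil genes S100a9 (−3.52), S100a8 (−2.74), Retnlg (−2.42), Il1b (−1.60) and Il1r2 (−1.59) were also among them. Neutrophil markers as a whole were uneven between the sets. All 10 listed were detected among members, and their summed level ran from 27.4 to 743 CPM in members of the 4 mice, against 937 to 6491 CPM in other heart B cells. Macrophage markers summed to 407 to 885 CPM in members and 998 to 1376 CPM in other heart B cells, with Cbr2 at 0 in both, although the C1q limit of the gate caps part of this sum. In an alternative, barcodes with at least 3 UMIs of T, NK, neutrophil or monocyte genes were left out, a filter that uses S100a8 and S100a9. There, 5 of 8503 genes were at least 2-fold higher among members in every mouse and 3 lower. The part of neutrophil and macrophage transcripts in the description was not tested.

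Members made up a smaller share of the heart in recipients of stroke marrow, but the mice were too few for a call. They were 2.41% and 5.08% of heart barcodes in stroke replicates 1 and 2 (95% Clopper-Pearson intervals 1.73 to 3.27 and 3.98 to 6.39), against 13.5% and 6.22% in control replicates 1 and 2 (11.1 to 16.2 and 5.08 to 7.53). These intervals, like the others below, cover counting error only. Both stroke mice lay below both control mice. The means were 3.75% ± 1.89 in stroke and 9.85% ± 5.14 in control recipients (SD, n = 2 each), a difference of −6.11 percentage points (exact two-sided permutation test, p = 0.333, the smallest that 2 mice against 2 allow). Without control replicate 1 the difference was −2.47 points. All B cells together were 4.04% and 11.4% of heart barcodes in the stroke replicates, against 20.2% and 12.1% in the control replicates. A share of sorted barcodes cannot tell fewer B cells from more cells of other types.

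Within the heart's B cells, the share past the gate was 59.7% and 44.5% in stroke replicates 1 and 2 (intervals 47.0 to 71.5 and 36.5 to 52.7), against 66.9% and 51.6% in control replicates 1 and 2. The groups overlapped. The means of 52.1% ± 10.7 in stroke and 59.2% ± 10.8 in control recipients differed by −7.13 points (exact two-sided permutation test, p = 0.667, n = 2 each), and the difference was 0.466 without stroke replicate 2 and 0.530 without control replicate 1. In blood the same gate took 40.9%, 53.8%, 30.9% and 25.7% of B cells in stroke replicates 1 and 2 and control replicates 1 and 2. Members were therefore a larger share of B cells in heart than in blood in 3 of 4 mice, and stroke replicate 2 went the other way. Over the 4 mice the shares averaged 55.7% ± 9.72 in heart and 37.8% ± 12.4 in blood (SD, n = 4), a difference of 17.8 points (exact sign-flip test over mice, two-sided, p = 0.25, with 0.125 the smallest possible). Without stroke replicate 2 the difference was 26.9 points, and without control replicate 1 it was 11.8. After every barcode was thinned to 2000 UMIs, shallower ones left out, the difference was 10.9 points.

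**Figure D3:**
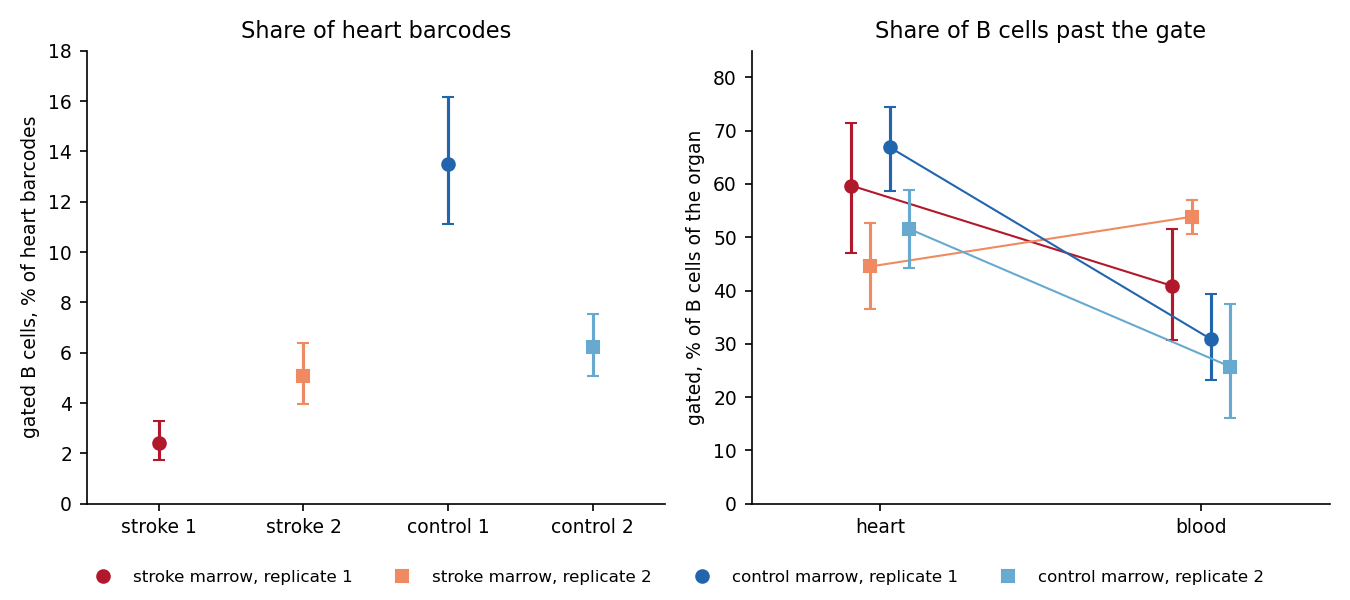
Left, members as a percentage of heart barcodes in each mouse; right, the percentage of B cells past the gate in heart and blood, lines joining the organs of a mouse. Bars are 95% Clopper-Pearson intervals. Both stroke mice lie below both controls on the left (2.41% and 5.08% against 13.5% and 6.22%), and 3 of 4 lines fall towards blood on the right.

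To see what sets members apart from their counterparts in the circulation, heart members were compared with the 630 blood B cells past the same gate (38 and 532 in stroke replicates 1 and 2, 42 and 18 in control replicates 1 and 2), with the mouse as a block. The gate is the same on both sides, so genes outside it were free to differ. Depth was close, with a median of 6811.5 UMIs in heart and 6871 in blood. The gate is a sum, however, and its mix of genes was not the same in both organs. In stroke replicates 1 and 2 and control replicates 1 and 2, Dnase1l3 was found in 50%, 39.1%, 43.4% and 52.0% of members. In gated blood of these mice it was found in 34.2%, 41.5%, 23.8% and 5.56%. Fcrl5 was found in 45%, 47.8%, 57.6% and 52.0% of members, against 65.8%, 46.2%, 59.5% and 61.1% in gated blood. In stroke replicate 2 both differences were reversed. Transcription factors of the immediate-early class such as Fos and Junb, the costimulatory ligand Cd86 and the activation marker Cd83 were several-fold higher in heart than in blood in every mouse. Of 6147 genes tested with edgeR's quasi-likelihood test (Benjamini-Hochberg adjusted p under 0.05), 339 were higher in heart (5.51%) and 269 lower (4.38%). DESeq2 called 177 higher and 61 lower. Blood of stroke replicate 2 holds most of the blood cells, and without that mouse edgeR called 233 genes in all; without control replicate 2 it called 343. How the heart was brought into suspension is not given in the labels used here, and organ and preparation cannot be told apart in this contrast.

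Immediate-early genes, which switch on within minutes of a stimulus without new protein synthesis, were frequent among the genes that rose. Of 19 tested, 15 rose in heart and none fell, with a median log2 fold change of 2.88 against −0.01 over all genes tested. Fos, a subunit of the AP-1 transcription factor, had 521 and 508 CPM in heart members of stroke replicates 1 and 2 and 244 and 422 CPM in those of control replicates 1 and 2, against 0, 15.9, 11.8 and 9.69 CPM in blood of the same mice. The organs did not overlap, and Fos was higher in heart in 4 of 4 mice (log2 fold change 5.17, SE 0.24, edgeR adjusted p = 1.77e-15). Its AP-1 partner Junb averaged 989 ± 148 CPM in heart and 91.2 ± 31.7 CPM in blood (SD, n = 4; log2 fold change 3.59, edgeR adjusted p = 1.27e-16). Atf3, a stress-induced factor of the same family, had 765, 635, 163 and 431 CPM in heart and 42.7, 38.7, 11.8 and 9.69 CPM in blood of the 4 mice (4.13, edgeR adjusted p = 8.19e-16). Dusp1, a phosphatase that shuts down MAP kinases, averaged 122 ± 23.0 CPM in heart and 6.26 ± 6.30 CPM in blood (log2 fold change 4.09). The orphan nuclear receptor Nr4a1, a readout of B cell receptor signals, averaged 83.5 ± 20.3 CPM in heart and 2.44 ± 2.94 CPM in blood (4.60). Its relatives had no UMI in the gated blood cells of any mouse: against a floor of 3 counts over the group, Nr4a2 was at least 70.1-fold and Nr4a3 at least 97.4-fold higher in heart, from 100 and 139 UMIs. Most of that blood depth came from stroke replicate 2, without which the bounds were 7.30-fold for Nr4a2 and 14.98-fold for Nr4a3. Egr1 (3.54), Fosb (2.88), Ier2 (2.20), Zfp36 (2.07), Jun (1.24), Btg2 (0.95) and Cd69 (0.73) were also called. Of the 15, 11 kept their call in every alternative setting in which they were tested; Nr4a2 and Ier3 lost theirs with DESeq2, Jun without stroke replicate 2, and Cd69 in 5 settings, among them DESeq2 and 3 of the 4 leave-outs of a mouse.

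**Figure D4:**
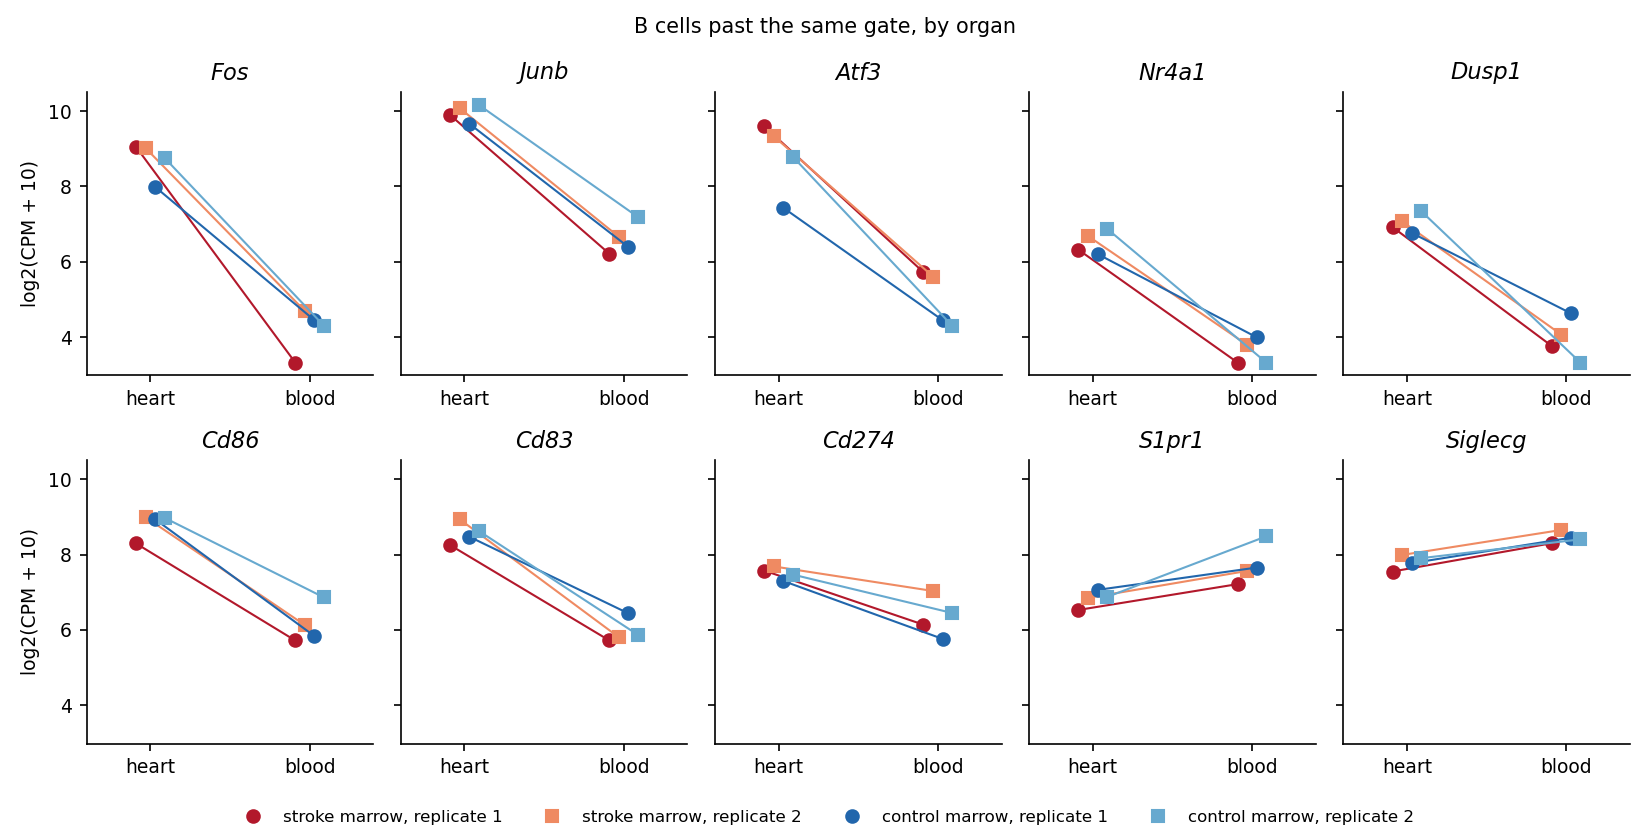
Log2(CPM + 10) of 10 genes in B cells past the same gate, heart beside blood, lines joining the organs of a mouse. The first 8 genes fall towards blood in all 4 mice, while S1pr1 and Siglecg rise towards blood.

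Promoter sequence was examined for these genes because they moved together. RefSeq windows of 300 bases around the transcription start (build GRCm38.p6) were available for 15 of the 21 listed genes, and the cyclic AMP response element core TGACG, searched on both strands and contained in the full element TGACGTCA, was picked after the calls had been seen. Counting a gene if any of its windows holds it, the core was present in 9 of the 15 genes (60%), in 47.5% of 263 genes called higher in heart, in 27.9% of 208 called lower, in 39.2% of 4952 tested and in 23.1% of all 27025 genes with a window. The full element was found in Dusp1 and Btg2 and in 2.03% of all genes, and the AP-1 site TGANTCA, also searched on both strands, in none of the 15, in 9.89% of the genes called higher, 8.17% of those called lower, 5.71% of those tested and 8.97% of all. These are matches of letters, given as a description and without a test. The windows of 4 genes whose organ difference was large are shown 5′ to 3′, with the core in capitals (CGTCA is its reverse complement); Fos lies at chr12:85473640-85473939 (plus strand), Nr4a1 at chr15:101266596-101266895 (plus), Atf3 at chr1:191183284-191183583 (minus) and Dusp1 at chr17:26508423-26508722 (minus).
Fos: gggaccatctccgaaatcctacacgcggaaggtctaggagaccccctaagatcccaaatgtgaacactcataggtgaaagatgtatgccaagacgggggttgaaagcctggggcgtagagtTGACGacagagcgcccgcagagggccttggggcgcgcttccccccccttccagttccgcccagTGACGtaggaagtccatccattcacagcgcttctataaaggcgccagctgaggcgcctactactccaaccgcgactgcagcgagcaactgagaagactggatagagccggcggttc
Nr4a1: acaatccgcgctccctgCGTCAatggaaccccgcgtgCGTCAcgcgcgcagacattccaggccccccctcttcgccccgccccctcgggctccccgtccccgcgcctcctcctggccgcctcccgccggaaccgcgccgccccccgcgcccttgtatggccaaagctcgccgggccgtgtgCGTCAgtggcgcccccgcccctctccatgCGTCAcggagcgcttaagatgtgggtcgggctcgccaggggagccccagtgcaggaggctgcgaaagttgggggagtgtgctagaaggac
Atf3: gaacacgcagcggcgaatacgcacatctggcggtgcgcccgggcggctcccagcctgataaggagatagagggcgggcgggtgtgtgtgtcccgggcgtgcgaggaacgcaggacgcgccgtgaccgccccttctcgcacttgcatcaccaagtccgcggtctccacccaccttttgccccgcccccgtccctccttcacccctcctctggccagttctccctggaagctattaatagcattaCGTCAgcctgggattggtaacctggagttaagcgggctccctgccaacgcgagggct
Dusp1: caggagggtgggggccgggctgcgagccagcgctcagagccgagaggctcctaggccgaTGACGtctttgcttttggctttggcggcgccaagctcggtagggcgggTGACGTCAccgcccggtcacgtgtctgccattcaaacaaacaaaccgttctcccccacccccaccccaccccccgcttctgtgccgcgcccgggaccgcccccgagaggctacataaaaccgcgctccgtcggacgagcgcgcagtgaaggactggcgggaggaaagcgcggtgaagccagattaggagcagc

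Fos held 2 cores, Nr4a1 4 and Atf3 1, and Dusp1 held 3, of which 2 overlap in the only full element of these windows.

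Genes by which B cells engage T cells rose alongside. Cd86, a ligand of CD28 and CTLA-4, had 305 and 500 CPM in heart members of stroke replicates 1 and 2 and 482 and 494 CPM in those of control replicates 1 and 2, against 42.7, 60.1, 47.2 and 107 CPM in blood (log2 fold change 3.03, SE 0.17, edgeR adjusted p = 1.09e-13). Cd83, which keeps class II and CD86 at the surface, averaged 377 ± 78.6 CPM in heart and 53.5 ± 15.7 CPM in blood (3.02, edgeR adjusted p = 1.56e-12). Cd80 rose less, at 99.7 ± 28.2 CPM in heart and 53.7 ± 8.22 CPM in blood (0.77, edgeR adjusted p = 0.0192). Its call was lost with DESeq2 and without stroke replicate 1 or control replicate 2. The 11 other tested genes of the antigen presentation list had no call, and the list's median was 0.14. Of 6 regulatory and checkpoint genes tested, 2 rose and none fell. Cd274, which encodes the inhibitory ligand PD-L1, averaged 173 ± 20.6 CPM in heart and 75.9 ± 33.1 CPM in blood (1.20), and the cytokine gene Tgfb1 averaged 103 ± 10.8 CPM in heart and 73.9 ± 20.9 CPM in blood (0.68). Tgfb1 lost its call in 6 of 15 alternatives, among them DESeq2 and leaving out stroke replicate 2 or either control replicate. Il10 had 18 UMIs in heart members and 1 in gated blood, below the filter for a test. The label genes Gem, at 172 ± 49.8 CPM in heart and 29.2 ± 8.79 CPM in blood (2.86, edgeR adjusted p = 8.11e-11), and Hs3st1, at 81.5 ± 14.3 CPM in heart and 14.0 ± 5.12 CPM in blood (2.70, edgeR adjusted p = 4.25e-08), kept their calls in every alternative.

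Follicular and receptor signalling genes moved the other way by smaller amounts. Of 10 follicular genes, 4 fell and none rose: S1pr1, the receptor by which lymphocytes leave tissue for blood (105 ± 17.0 CPM in heart, 215 ± 92.2 CPM in blood, log2 fold change −0.85), Ighd (−1.05), Btla (−0.79) and Cd55 (−0.61). Ighd and Btla lost their calls without either control replicate, and Cd55 lost its call with DESeq2 and without control replicate 1. In the B cell receptor cascade, 4 of 10 tested genes fell, among them the kinases Syk (525 ± 58.0 CPM in heart, 910 ± 252 CPM in blood, −0.67) and Btk (−0.52) and the lipid kinase subunit Pik3cd (−0.62), while the kinase Lyn rose (0.39). Of the 4 genes named here, Syk alone kept its call in every alternative tried. Btk lost its call with DESeq2 and with any 1 mouse left out. Pik3cd lost its call with DESeq2 and without either control replicate or stroke replicate 2, and Lyn without control replicate 1 or stroke replicate 2. Among inhibitory receptors of B cells and their partners, 3 of 9 rose and 1 fell. The receptor Siglecg fell to 215 ± 29.0 CPM in heart, against 342 ± 37.0 CPM in blood (−0.60), and the phosphatase Ptpn6, which such receptors recruit, rose to 227 ± 40 CPM in heart against 147 ± 17.0 CPM in blood (0.71); both calls were lost without stroke replicate 2. The receptors Cd72 (1.23) and Lilrb4a (2.27) rose too, with both calls lost under DESeq2 and that of Cd72 also without stroke replicate 1, stroke replicate 2 or control replicate 2. The B-1 list had 1 call of 13, for Ahr (1.66), with a median of −0.06, and Zbtb32 (−0.31, edgeR adjusted p = 0.338), Bhlhe41 (0.16, 0.752), Itgam (0.28, 0.598) and Ighm (−0.24, 0.126) were not called. Ahr lost its call with DESeq2 and without stroke replicate 2. Single genes rose in the plasma cell list (Prdm1, 1.89, 1 of 6), the germinal centre list (Bcl6, 1.56, 1 of 2), the cytokine receptor list (Il21r, 0.85, 1 of 9), the cell cycle list (Mcm5, 1.71, 1 of 11) and the homing list (Cd44, 0.55, beside S1pr1, of 14). In the interferon list Trim30a fell (−0.62, 1 of 9), among toll-like receptor genes Ly86 fell (−0.44, 1 of 4), and among immunoglobulin constant genes Iglc1 (−0.38) fell beside Ighd, of 8. Most of these single calls were not stable: with DESeq2 all 8 beside S1pr1 and Ighd were lost, Il21r also with any 1 mouse left out, Cd44 without stroke replicate 1 or control replicate 2, Mcm5 without stroke replicate 2, control replicate 2 or the barcodes of other lineages, Prdm1 without control replicate 1, Iglc1 without stroke replicate 2 or control replicate 2, and Trim30a and Ly86 without either stroke replicate or control replicate 2. None of 8 marginal zone genes was called.

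The 10 genes with the largest rise were Nr4a2, Nr4a3, Trp53inp2, Fos, Cxcl2, Ier3, Nr4a1, Clec4e, Il1b and Nfil3, and those with the largest fall were Trbc1, Gm44734, Igkv1-110, Phyhd1, E230001N04Rik, B3gnt8, Gm15912, Gm11342, F730311O21Rik and 1700012D14Rik. Several rest on few barcodes. All UMIs of the chemokine Cxcl2 came from 11 of 306 members, with 42.9% in 1 barcode, those of the cytokine Il1b from 18 members and of Ier3 from 9, while Nr4a1 was found in 111 members and Nfil3, a leucine zipper factor, in 62. Trbc1, a T cell receptor constant gene, had UMIs in 1 member and 7 gated blood cells. Its call was lost with DESeq2 and without either stroke replicate, and that of 1700012D14Rik without stroke replicate 2. With DESeq2, Trp53inp2, Clec4e, Igkv1-110, Phyhd1, E230001N04Rik, B3gnt8 and Gm15912 lost their calls too, beside Nr4a2 and Ier3. Gm15912 also lost its call at a hashtag purity of 95% and without stroke replicate 1. Markers of other cells differed between the organs: neutrophil markers summed to 27.4 to 743 CPM in heart members and 21.9 to 272 CPM in gated blood, macrophage markers to 407 to 885 CPM in heart and 236 to 397 CPM in blood, and monocyte markers, which include Nr4a1, to 146 to 346 CPM in heart and 0 to 38.4 CPM in blood. T cell markers summed to 2.11 to 98.8 CPM in heart and 9.69 to 338 CPM in blood, with Foxp3 at 0 in both. Lyz2 (2.40), S100a8 (1.70) and S100a9 (1.33) were called higher in heart. S100a8 lost its call with DESeq2 and without stroke replicate 1 or control replicate 2. S100a9 lost its call in these settings too, and also without stroke replicate 2, at a hashtag purity of 95% and without the mouse as a block. When barcodes with at least 3 UMIs of T, NK, neutrophil or monocyte genes were left out, 566 genes were called, Fos, Junb, Atf3, Cd86 and Cd83 among them, and Lyz2, which that filter uses, stood at −0.37. Of the 10 genes with the largest rise, Trp53inp2, Cxcl2, Ier3, Clec4e and Il1b were then too low to be tested, and the other 5 were still called.

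The organ difference was not found to depend on the gate. In B cells outside the gate, heart against blood gave 139 higher (2.54%) and 40 lower (0.73%) of 5481 genes, and 13 of 17 immediate-early genes rose there. Of the 608 genes called within the gate, 566 were also tested outside it, 538 of these had the same sign there and 140 were called, all in the same direction; the 2 contrasts come from the same libraries but different barcodes. A test of the difference between the 2 organ contrasts called 0 of 6561 genes (0%) with edgeR, with 318 at an unadjusted p under 0.05, which does not show that the contrasts are equal. For Fos the organ contrast was larger by 1.02 on the log2 scale within the gate (edgeR adjusted p = 0.936), and for Cd86 by 0.23 and Gem by 0.18 (edgeR adjusted p = 1 for both).

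The comparison the study's design asks about, stroke against control marrow, gave little within the members. Of 6362 genes tested with edgeR, none was called higher in stroke recipients (0%) and 3 were called lower (0.0472%), with 271 at an unadjusted p under 0.05. DESeq2 called none of its 14352 genes, with 65 at an unadjusted p under 0.05. Il31ra, a receptor chain for interleukin 31 on chromosome 13 (GRCm38, 112519898 to 112594360), had 12.7 and 10.5 CPM in members of stroke replicates 1 and 2, against 51.3 and 74.9 CPM in those of control replicates 1 and 2 (log2 fold change −2.43, SE 0.44, edgeR adjusted p = 0.0362). Gm43305, a noncoding transcript on chromosome 14 (54292443 to 54297456), had 9.52 and 19.0 CPM in stroke recipients against 67.5 and 81.7 CPM in control recipients (−2.28, SE 0.39, edgeR adjusted p = 0.0329). The histone gene Hist1h2ap, one of a family of near-identical copies whose reads may be split, had 0 and 2.11 CPM in stroke recipients against 108 and 35.4 CPM in control recipients (−5.60, SE 0.85, edgeR adjusted p = 0.0111), with 29.2% of its UMIs in 1 barcode. The donor groups did not overlap for these 3 genes, which is common here: 14.9% of all tested genes lay higher and 16% lower in both stroke mice than in either control mouse. In gated blood Il31ra had 46.3, 12.3, 44.3 and 58.1 CPM in stroke replicates 1 and 2 and control replicates 1 and 2, with overlap. Il31ra was not called without stroke replicate 2 and Hist1h2ap was not without control replicate 1. None of the 3 was called with a gate sum of at least 3 UMIs or under the stricter filter of 500 genes and 5% mitochondrial UMIs.

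No gene of any list was called between the donor groups. Among immediate-early genes, Atf3 had 765 and 635 CPM in stroke recipients against 163 and 431 CPM in control recipients (log2 fold change 1.24, SE 0.30, edgeR adjusted p = 0.264). Fos had 521 and 508 CPM in stroke recipients against 244 and 422 CPM in control recipients (0.63, edgeR adjusted p = 0.994), Dusp1 overlapped between the groups (−0.08, edgeR adjusted p = 0.999), and Fosb lay lower in both stroke mice, at 38.1 and 33.8 CPM against 53.8 and 70.8 CPM in control recipients (−0.79, edgeR adjusted p = 0.994). Of 19 immediate-early genes tested, 2 lay higher and 1 lower in stroke recipients without overlap, against 14.9% and 16% over all genes. Atf3 was called without control replicate 2 (2.14), without stroke replicate 2 (1.38), without barcodes of other lineages (1.25) and without the low-count filter (1.23), and Fos without control replicate 2 (1.11). Of 13 antigen presentation genes, 5 lay lower in the stroke mice without overlap and 2 higher, with H2-Aa at −0.16, H2-Ab1 at −0.15, Ciita at −0.50 and Cd40 at −0.55, none called. Of 13 B-1 genes 4 lay lower without overlap (Bhlhe41, Spn, Pstpip2, Sox5) and 2 higher (Itgam, Ptpn22). Hmgn2 (−1.36, edgeR adjusted p = 0.541), Erh (−0.81, 0.994) and Pgap1 (0.74, 0.994) did not pass either. Ighm was close between the groups, at 2685 ± 80.7 CPM in stroke and 2668 ± 117 CPM in control recipients (SD, n = 2 each). A test of whether the organ difference itself depended on the donor called 20 of 6147 genes with edgeR (0.325%), 5 larger and 15 smaller in stroke recipients; the count was 4 without control replicate 1 and 6 without stroke replicate 1.

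**Figure D5:**
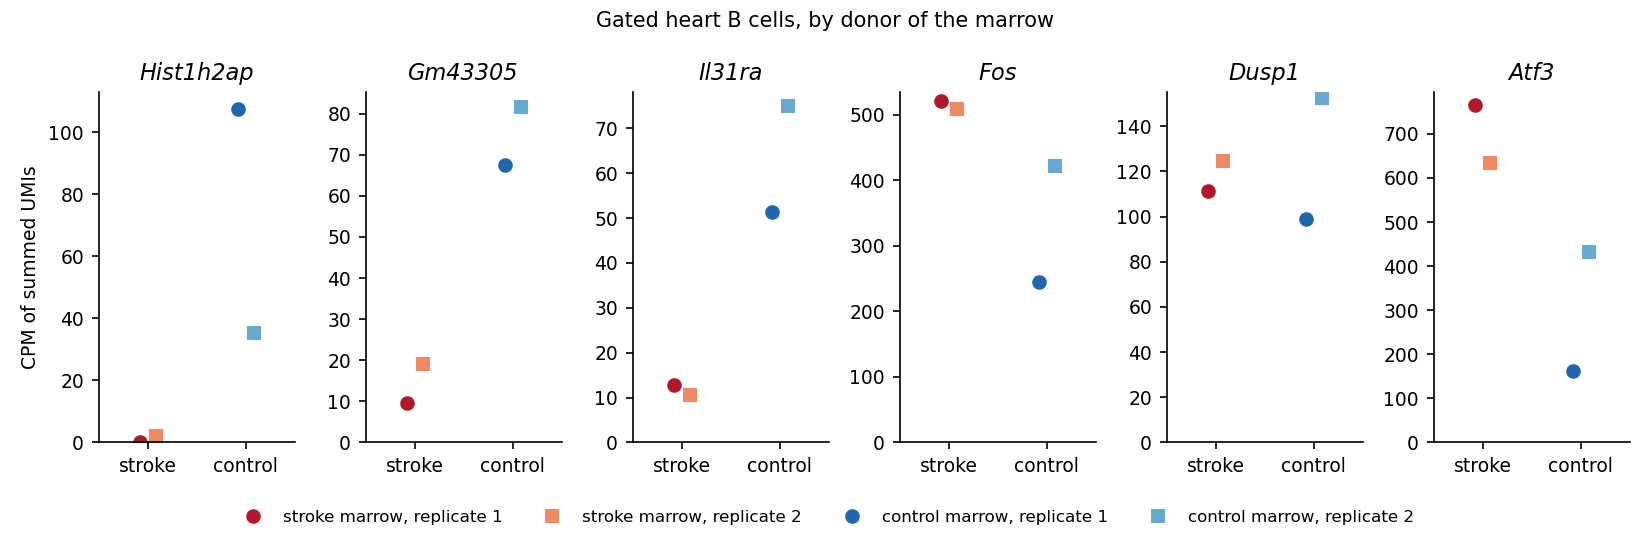
CPM of 6 genes in members, by donor of the marrow, 1 point per mouse. The 3 called genes on the left are lower in both stroke mice (Il31ra 12.7 and 10.5 CPM against 51.3 and 74.9 CPM), and Fos and Atf3 lie higher in both stroke mice without a call.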

How the data were processed

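The authors deposited UMI counts per gene or hashtag antibody and barcode for 4 pooled libraries, as raw counts without normalization, made with Cell Ranger 7.1.0 on mm10 per the submitters' processing notes. No source used here says whether reads were subsampled to equal depth on joining the libraries. The members, gene lists and tests were chosen with earlier results of these data known.

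Barcodes were filtered, assigned to an organ and gated as described in the report. Doublets were called per library with Scrublet in scanpy 1.11.5 (expected rate 6%) and left out in an alternative only: 8 members were called. Cells were not treated as replicates. UMIs were summed per mouse, organ and gate, and tested in edgeR 4.0.16 (quasi-likelihood, TMM, filterByExpr, Benjamini-Hochberg threshold 0.05): stroke against control over 4 sums, and, with a mouse term, heart against blood over 8 sums, since both organs came from the same animal. The 10 gate genes were fitted but left out of every count of calls. Fold changes are log2 and standard errors derive from the F statistic. With 2 mice a group, p-values measure the spread between these libraries. Shares were compared by exact permutation or sign-flip tests.

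Named genes were the label and gate genes, the 10 called genes with the largest change in each direction per test, the 15 highest and 10 lowest of the description, genes fixed by name (such as Ighm, Cd5, Itgam, Fos and Dusp1) and members of the lists. Alternatives were DESeq2 1.42.0, RLE scaling, no low-count filter, other gates and filters, and each mouse left out. The fits were tested on simulated data. Values of some genes of the lists are not reported here. Coordinates come from GENCODE vM21 (GRCm38), which holds 32158 of the 32285 gene identifiers.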

Additional observations from a re-analysis of the deposited data

Results flagged for a closer look

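B cells made up 75.5% of the blood barcodes of stroke replicate 2 and gated B cells 40.6%, each far from the other 3 mice. Among 58 values examined for a mouse far from the other 3, 8 were flagged. The nominal chance rate of about 1 in 20 assumes normally spread values and does not hold here. A gene with UMIs in 1 mouse alone is always flagged, as were Trp53inp2, Ier3 and Clec4e in gated blood and Trbc1 in members. In gated blood, stroke replicate 2 alone had UMIs of Trp53inp2 (0.481 CPM), Ier3 (0.721 CPM) and Clec4e (1.2 CPM), while its sum was the deepest. In members, Trbc1 was found only in control replicate 2 (17.7 CPM, from 1 barcode), F730311O21Rik was highest in stroke replicate 2 (10.5 CPM) and 1700012D14Rik in control replicate 1 (18.8 CPM).

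The organ difference within the gate depended on the donor of the marrow for 20 genes. For Fcer2a the log2 contrast of heart over blood was larger in stroke than in control recipients by 2.06 (edgeR adjusted p = 0.00341), for Ighd by 1.45 (0.00586) and for Satb1 by 1.89 (0.0407). None of these 3 was called without control replicate 1 or without stroke replicate 2, and Satb1 stood at −0.24 without control replicate 1. For the cell cycle genes Mki67 (−5.36, edgeR adjusted p = 5.51e-11), Top2a (−3.50, 1.83e-08), Stmn1 (−2.27, 0.000671) and Hmgb2 (−1.48, 0.00133) it was smaller in stroke recipients. Control replicate 1 carried these genes in the heart: Mki67 had 2 and 3 UMIs in members of stroke replicates 1 and 2 and 103 and 4 in those of control replicates 1 and 2, and Top2a had 10 and 14 UMIs in the stroke replicates and 148 and 17 in the control replicates. In gated blood, control replicate 2 had no UMI of Mki67, Top2a or Stmn1. Without control replicate 1, Mki67, Top2a and Hmgb2 were not called (edgeR adjusted p = 0.633, 0.341 and 0.77), and without stroke replicate 1 none of the 4 was called. Barcodes with at least 2 UMIs of Mki67, Top2a, Birc5 and Cdk1 numbered 2 and 3 among members of stroke replicates 1 and 2 and 7 and 3 in control replicates 1 and 2. In gated blood they numbered 3 and 9 in stroke replicates 1 and 2 and 3 and 0 in control replicates 1 and 2, and the part of so few barcodes in the result was not tested.

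UMIs of the transgene agfp, which no comparison used, were found in 35.0% and 10.1% of members of stroke replicates 1 and 2 and in 8.08% and 14.3% of those of control replicates 1 and 2, and those of kgfp in 4.04% of members of control replicate 1 (4 barcodes) and in none of the other 3 mice. Among heart barcodes that were no B cells, agfp was found in 53.0% and 48.8% in stroke replicates 1 and 2 and in 48.1% and 47.9% in control replicates 1 and 2. In blood barcodes that were no B cells, agfp was found in 95.6%, 76.6%, 45.1% and 85.5% of the same mice in this order. Of barcodes that were no B cells, kgfp was found in 57.2% in heart and 72.1% in blood of control replicate 1, and in 0% in both organs of the other 3 mice.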

How the results depend on the processing

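The count of genes called between stroke and control recipients, 3 with edgeR, was 0 with DESeq2, 0 with a gate sum of at least 3 UMIs, 0 with the stricter quality filter, 1 at a hashtag purity of 95%, 6 without Scrublet doublets, 10 without barcodes of other lineages and 61 without the low-count filter, and between 17 and 73 with 1 mouse left out, when the lone mouse of a group is assumed to vary like the others; the cause was not tested. With the replicate number as a block it was 26, but the numbers did not pair the samples (correlation −0.0332 over 6090 genes). The 608 calls between heart and blood became 238 with DESeq2 and between 233 (without stroke replicate 2) and 583 with 1 mouse left out; without the mouse as a block there were 433. Of 65 organ genes named or listed, 24 kept their call in every alternative in which they were tested, and Lyz2 reversed to −0.37 without barcodes of other lineages. The difference of the gated share of heart B cells ran from −14.8 to 0.530 points with 1 mouse left out. The 11 genes differing at least 2-fold between members and other heart B cells in every mouse became 54 at an offset of 1 CPM and between 15 and 37 with 1 mouse left out, as fewer mice have to pass. Between donor groups Dusp1, not called, turned from −0.08 to 0.22 without doublets, 0.071 at a gate sum of 3 and 0.19 without barcodes of other lineages, and ran from −0.38 to 0.30 with 1 mouse left out. The 20 genes whose organ difference depended on the donor became between 4 and 29 with 1 mouse left out, an alternative chosen after seeing the data. Leaving out barcodes with at least 5 haemoglobin UMIs, chosen after seeing the data, changed no count by over 1.5 times. Stroke replicate 1 held 40 members and gated blood of control replicate 2 18 barcodes, which limits the depth of every comparison that uses them.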
